A study of Homo sapiens with 6 samples.

Results

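The IQSEC3 to CPNE8 stretch of chromosome 12 is a run of neighbouring genes that begins near the short-arm end of the chromosome, takes in the short arm and ends just past the centromere. Its members were chosen by measured values, because most of their RNA levels lay lower in cells given a hairpin against DAXX than in cells given a scrambled one, so every change given for them below is a description and not a test. A member is a gene with an array cluster of its own (a set of probes annotated to exactly 1 gene symbol) that lies between IQSEC3 and CPNE8 in the gene order of the human reference. After 21 of the 330 placed genes had been left out by the selection rule, 309 of the 22465 genes measured were members. By class, 249 were protein-coding, 26 were long noncoding RNAs, 14 were pseudogenes, 10 were transcribed pseudogenes, 7 were microRNA genes and 3 were small nuclear-body RNAs. The remaining 839 placed genes of chromosome 12 served for comparison.

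The cells were MDA-MB-231, a long-established line from a human breast cancer of the triple-negative type. The shDAXX cells carried a lentiviral short hairpin RNA against DAXX, and the shControl cells carried a scrambled hairpin. Both pools were stable lines selected with 2 µg/ml puromycin and were grown for 24 hours in complete DMEM medium. Each group had 3 arrays, described by the submitters as biological replicates, and no label ties them to separately transduced pools. The p-values and errors therefore cover the spread between these cultures, not between independent transductions.

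The short arm of chromosome 12 carries genes of very different functions side by side. Near its end lie chromatin regulators, a run of glycolytic enzyme genes and the cyclin gene CCND2. In the middle lies the natural killer complex, a cluster of lectin-like receptor genes that belong to leukocytes, next to clusters of bitter taste receptor and salivary protein genes. Closer to the centromere lie signalling genes, organic anion transporter genes and many housekeeping genes. DAXX, the gene the hairpin targets, lies on another chromosome and encodes a protein that delivers histone H3.3 to chromatin.

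The promoters of 4 members are printed to show the start regions of genes that fell most. They belong to those of the 10 members with the largest falls that had exactly 1 start in the RefSeq promoter table (build GRCh38.p14), and each runs from 250 bases before to 50 bases after the annotated start. BHLHE41, a repressor of the circadian clock, has its window at chr12:26124988-26125287 on the minus strand, and SLCO1B3, an uptake transporter of organic anions, at chr12:20810455-20810754 on the plus strand. DDX47, an RNA helicase of ribosomal RNA processing, has its window at chr12:12813096-12813395 on the plus strand, and EMP1, an epithelial membrane protein, at chr12:13196476-13196775 on the plus strand. Capitals mark matches on either strand to the motifs searched, which were the GC box GGGCGG, the E-box CACGTG, the CCAAT box CCAAT, the TATA box TATAAA and the sterol regulatory element TCACNCCAC.
BHLHE41: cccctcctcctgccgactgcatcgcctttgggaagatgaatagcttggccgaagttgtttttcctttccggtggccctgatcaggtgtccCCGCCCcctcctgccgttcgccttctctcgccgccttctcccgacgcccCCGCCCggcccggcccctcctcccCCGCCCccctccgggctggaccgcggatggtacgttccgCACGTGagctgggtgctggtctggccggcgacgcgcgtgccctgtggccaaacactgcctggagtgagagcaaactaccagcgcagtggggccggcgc
SLCO1B3: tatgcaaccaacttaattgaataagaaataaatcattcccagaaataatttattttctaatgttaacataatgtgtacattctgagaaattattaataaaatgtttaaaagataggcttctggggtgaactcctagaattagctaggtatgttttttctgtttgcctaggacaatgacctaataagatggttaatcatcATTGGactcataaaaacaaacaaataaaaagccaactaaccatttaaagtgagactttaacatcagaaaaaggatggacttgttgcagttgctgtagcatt
DDX47: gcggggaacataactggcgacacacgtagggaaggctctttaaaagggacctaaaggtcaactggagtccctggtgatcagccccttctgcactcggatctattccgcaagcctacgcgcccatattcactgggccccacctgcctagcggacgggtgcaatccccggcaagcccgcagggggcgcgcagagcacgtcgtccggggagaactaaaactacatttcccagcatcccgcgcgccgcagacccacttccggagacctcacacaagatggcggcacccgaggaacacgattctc
EMP1: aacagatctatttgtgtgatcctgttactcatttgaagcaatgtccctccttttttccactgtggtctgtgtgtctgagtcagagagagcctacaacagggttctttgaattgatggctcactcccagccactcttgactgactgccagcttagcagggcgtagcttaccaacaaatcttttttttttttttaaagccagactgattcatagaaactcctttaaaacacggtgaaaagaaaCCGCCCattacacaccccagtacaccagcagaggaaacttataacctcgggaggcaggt
The BHLHE41 window was 69.3% G or C and held 3 GC boxes and 1 E-box. The SLCO1B3 window was 30.0% G or C and held 1 CCAAT box. The EMP1 window held 1 GC box, and the DDX47 window held none of the letters searched, so no motif of the 5 was shared by all 4 windows.

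Of the 309 members, 201 had an entry in the promoter table and 149 had exactly 1 window. Among those called lower with a signal above the table's median, 64 had 1 window, and their median G and C content was 62.7%, against 57.7% in the 22114 single windows of all genes and 56.3% in 24 windows of members with such a signal that were not called. The GC box was present in 68.8% of the 64 windows, against 43.0% of all single windows and 50.0% of the 24. The sterol regulatory element was present in 1.56% of the 64, against 1.16% of all, the E-box in 7.81% against 7.28%, the CCAAT box in 34.4% against 36.2% and the TATA box in 7.81% against 12.7%. The single windows of all genes were not filtered by signal, unlike the 64 and the 24. Members above the table's median that were not called lower had a median signal of 5.71, against 7.92 in all 188 members above it. Whether signal had a part in these differences was not tested. A match describes letters in the window only.

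All values are log2 RMA signals of 1-colour arrays, and a difference of 1 is a change of 2-fold. Array medians ran from 4.96 to 5.07, the correlation between arrays was 0.996 to 0.997 within groups and 0.991 to 0.992 between them, and the number of arrays limits the precision. DAXX measured 6.69, 6.67 and 6.61 in the shDAXX arrays, against 7.49, 7.48 and 7.43 in the shControl arrays, a fall of 0.81 (SE 0.060, limma adjusted p = 0.00049). The groups did not overlap. The 5 mesenchymal markers of the line (VIM, CD44, AXL, SNAI2, FN1) had mean signals of 7.90 to 15.90. Of these 5, AXL was called lower, by 0.47, and SNAI2 and CD44 were called higher, by 0.53 and 0.39. ESR1, PGR and CDH1 lay below the table's median of 4.99, and EPCAM lay at 8.03 in shDAXX and 7.98 in shControl. The 6 leukocyte markers had means of 4.38 to 5.29, with summed log2 values of 29.40 to 29.65 in shDAXX and 28.85 to 29.73 in shControl. Of these 6, PTPRC was called lower, by 0.29. In bulk RNA, fewer cells with a transcript and less transcript per cell cannot be told apart, and the arrays measured RNA only.

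Across the stretch, 119 of the 309 members (38.5%) were called lower and 4 were called higher by limma at an adjusted p under 0.05. Over all genes, 5.60% were called lower and 4.30% higher, and since this contrast chose the stretch, nothing is read from the excess. The 3 shDAXX values lay below all 3 shControl values in 145 members, against a background of 14.7% of all genes, and above them in 18 members, against 14.0%. In all, 225 members had a fold change below 0, and 32 were lower by more than 2-fold. The median log2 fold change of the members was -0.20 (quartiles -0.67 and 0.01), with extremes of -2.24 and 0.92.

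On the rest of chromosome 12, 37 of 839 genes were called lower and 75 higher, and the median log2 fold change was 0.03. Among genes with a mean signal over the 6 arrays above the table's median, the calls were 118 lower and 3 higher among 188 members, whose median was -0.55. The same restriction left 566 genes on the rest of the chromosome, with a median of 0.01 and with 35 lower and 73 higher (12.9%) calls. Of all 14297 genes with such a signal, 8.53% were called lower and 6.37% higher.

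The 3 shDAXX arrays gave nearly the same picture. The median level of the 188 members was 7.57, 7.66 and 7.67 in the shDAXX arrays, against 8.23, 8.35 and 8.22 in the shControl arrays. The median level of the 566 other genes was 7.95, 8.02 and 7.93 in the shDAXX arrays, against 7.89, 7.99 and 7.89 in the shControl arrays. Thus each shDAXX array was lower than each shControl array over the stretch, whereas the groups overlapped over the rest of the chromosome.

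**Figure D1:**
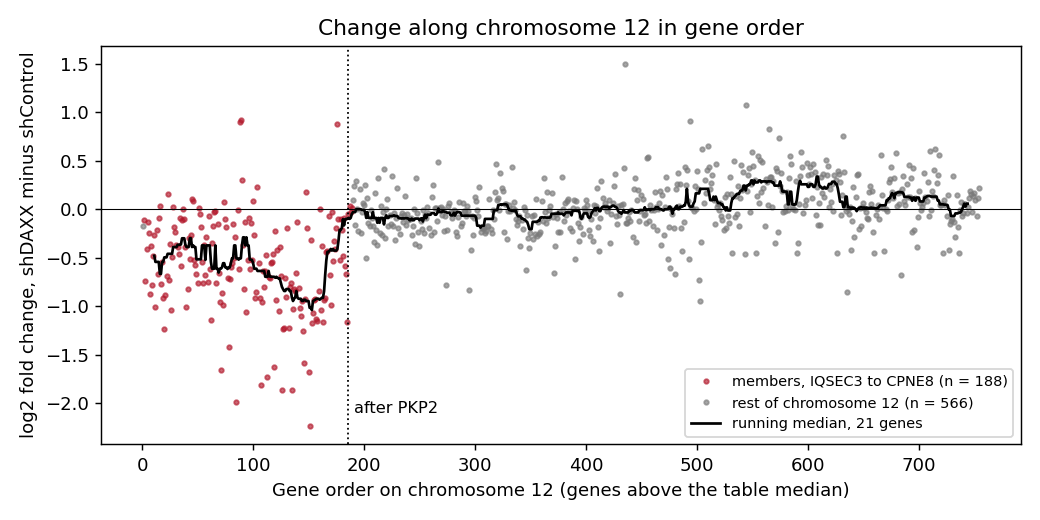
Log2 fold change (shDAXX minus shControl) of the chromosome 12 genes with a mean signal above the table's median, in gene order, with 188 members of the stretch in red, 566 other genes in grey and the running median over 21 genes as a black line. The line stays below 0 through the stretch and returns to near 0 after PKP2, marked by the dotted line.

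The size of the difference followed the array signal. In the 121 members whose signal was not above the table's median, the median was 0.02, 1 was called lower and 1 higher, so dim members showed next to no shift. From the table's median up to a signal of 7, 19 of 74 members were called lower, with a median of -0.15. Between 7 and 9, it was 28 of 35 with a median of -0.61, between 9 and 11 it was 33 of 40 with a median of -0.81, and above 11 it was 38 of 39 with a median of -0.91. The medians of the other chromosome 12 genes in these same 5 ranges lay between -0.01 and 0.08. In order of rising signal, 0.733%, 4.17%, 5.69%, 7.69% and 9.09% of these other genes were called lower. The shares called higher were 0.733%, 5.09%, 14.6%, 23.9% and 14.5%. RMA compresses differences near background, and the part of that in the smaller values of dim members was not tested.

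**Figure D2:**
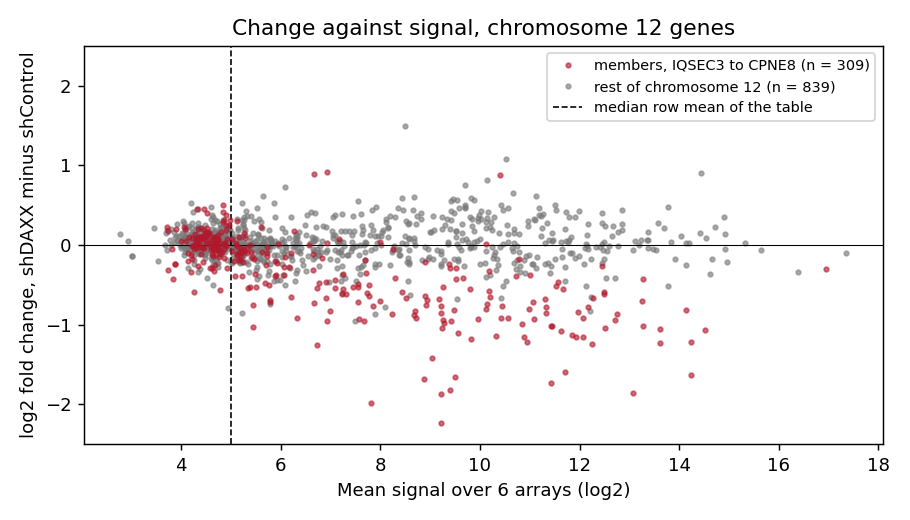
Log2 fold change against the mean signal over the 6 arrays for 309 members (red) and 839 other chromosome 12 genes (grey), with the table's median row mean as a dashed line. Members over a signal of 9 lie almost entirely below 0, and dim members lie around 0 with the other genes.

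The depth of the fall varied along the stretch. Among the 79 members with a signal over 9, 71 were called lower. Among the other chromosome 12 genes, the share called lower was 7.69% between 9 and 11 and 9.09% above 11. Of the 79 members, 8 lay between IQSEC3 and TIGAR, all called lower, with a median log2 fold change of -0.89. From FGF23 to CD163, 15 of 18 were called lower and the median was -0.52. From APOBEC1 to ETV6, it was 8 of 9 and -0.85, and from BCL2L14 to ERGIC2 it was 35 of 36 and -1.03. From OVCH1 to PKP2, 5 of 7 were called lower, 1 was called higher and the median was -0.59. These 5 bounds were set after the values were seen. In consecutive blocks of 20 members, fixed by order alone, the medians over members with a signal over 9 ran from -0.32 in the block from FGF6 to MRPL51 to -1.32 in the block from APOBEC1 to MFAP5, where only 2 members had such a signal. The block from ITPR2 to ERGIC2 held 12 such members, all called lower, between -1.17 and -0.43.

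At the IQSEC3 end, the first 5 members were mixed in signal and in calls. IQSEC3, a guanine nucleotide exchange factor of neurons, its antisense RNA IQSEC3-AS3 and B4GALNT3, a glycosyltransferase, differed by -0.11 (SE 0.078), 0.10 and -0.13 and were not called. Their group means lay between 4.31 and 5.19, near or below the table's median of 4.99, where members showed little shift. KDM5A, a histone H3 lysine demethylase, measured 9.87, 9.74 and 9.71 in shDAXX, against 10.34, 10.55 and 10.64 in shControl, a log2 fold change of -0.74 (SE 0.095). CCDC77, a coiled-coil protein, was lower by 0.41 on the log2 scale. The 2 placed genes before IQSEC3, WASH8P and FAM138D, differed by -0.17 and -0.12 and were not called.

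At the CPNE8 end, the last member called lower was PKP2, 6 members before the bound of the stretch. PKP2, a plakophilin of desmosomes, measured 11.52, 11.42 and 11.52 in shDAXX, against 12.71, 12.64 and 12.59 in shControl, a log2 fold change of -1.16 (SE 0.066). Its neighbours YARS2, the mitochondrial tyrosyl-tRNA synthetase, and DNM1L, the dynamin of mitochondrial fission, were lower by 0.66 and 0.59. The groups did not overlap in any of the 3. Next in order, SYT10 and ALG10 differed by -0.01 and -0.05, the 5S ribosomal RNA pseudogenes RNA5SP357, RNA5SP358 and RNA5SP359 by -0.20, 0.03 and -0.03, and none was called. SYT10 was dim, with means of 4.28 in shDAXX and 4.29 in shControl. Another cluster is annotated to both ALG10 and ALG10B. ALG10 and the pseudogenes may thus share probe signal with copies elsewhere, which was not tested. CPNE8, a calcium-dependent membrane-binding protein and the last member, measured 10.01, 10.22 and 10.18 in shDAXX, against 10.14, 10.19 and 10.04 in shControl, so the groups overlapped at a signal at which most members before PKP2 were lower. The 5 genes just beyond it, KIF21A, ABCD2, REDIC1, SLC2A13 and LRRK2, differed by 0.09, -0.04, 0.15, 0.24 and -0.17, and none was called. Over the next 20 genes with a signal above the table's median, 1 was called lower, 1 higher, and the median was -0.02.

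The 10 members with the largest falls all lay between SLC2A3 and BHLHE41, in the middle and the inner part of the short arm. BHLHE41 measured 8.04, 7.99 and 8.24 in shDAXX, against 10.35, 10.36 and 10.27 in shControl, which is 4.71-fold lower (log2 fold change -2.24, SE 0.083). OLR1, the receptor for oxidized low-density lipoprotein, measured 6.83, 6.77 and 6.84 in shDAXX, against 8.75, 8.76 and 8.89 in shControl, 3.96-fold lower. These are the members whose shDAXX arrays lay farthest below their shControl arrays. SLCO1B3 measured 8.21, 8.33 and 8.31 in shDAXX, against 10.18, 10.22 and 10.04 in shControl, 3.64-fold lower. ARHGDIB, a GDP-dissociation inhibitor, measured 12.08, 12.27 and 12.08 in shDAXX, against 14.03, 14.09 and 13.89 in shControl, 3.63-fold lower. Its cluster had among the strongest signals of the stretch. MANSC1, a transmembrane protein, measured 8.40, 8.65 and 8.42 in shDAXX, against 10.45, 10.38 and 10.09 in shControl, 3.52-fold lower. DDX47 measured 10.44, 10.65 and 10.59 in shDAXX, against 12.43, 12.33 and 12.11 in shControl, 3.32-fold lower. Both were lower in each shDAXX array by more than the spread within either group. RASSF8, a Ras-association domain protein that lies next to BHLHE41 in gene order, measured 7.99, 8.0 and 8.11 in shDAXX, against 9.56, 9.81 and 9.76 in shControl, 3.20-fold lower. SLC2A3, the glucose transporter GLUT3, measured 8.65, 8.79 and 8.57 in shDAXX, against 10.25, 10.36 and 10.38 in shControl, 3.16-fold lower. EMP1 measured 13.39, 13.44 and 13.46 in shDAXX, against 14.92, 15.24 and 15.02 in shControl, 3.10-fold lower. Like ARHGDIB, EMP1 had a strong signal in both groups. BCAT1, the cytosolic branched-chain aminotransferase, measured 10.84, 10.90 and 10.98 in shDAXX, against 12.47, 12.57 and 12.45 in shControl, 3.01-fold lower. In all 10, every shDAXX array lay below every shControl array.

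**Figure D3:**
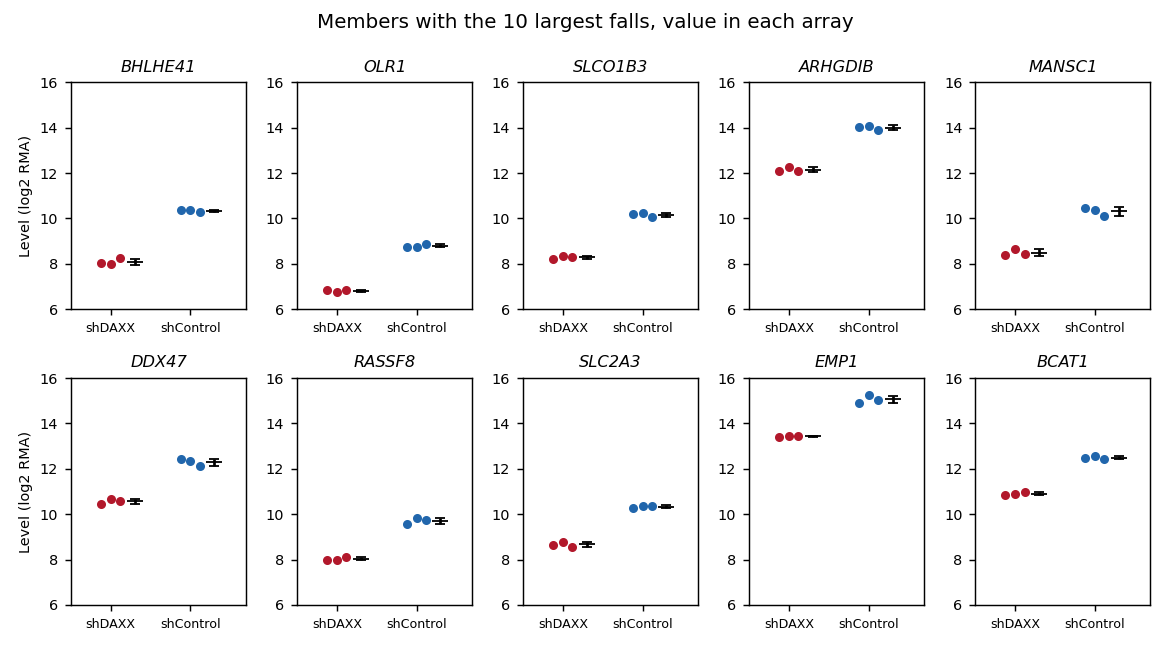
Log2 RMA level in each array for the 10 members with the largest falls, with shDAXX arrays in red on the left, shControl arrays in blue on the right, and the mean with SD (n = 3) as a black mark beside each group. The groups stand apart in all 10 panels, with log2 fold changes of -2.24 to -1.59.

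The 15 members with the strongest shControl signal had a median log2 fold change of -1.04. Their values ran from -1.86 in ARHGDIB to -0.30 in GAPDH, 14 were called lower, and the groups stood apart in all 15. They included YBX3, a cold-shock domain protein (-1.06), STRAP, a protein of the SMN complex (-1.22), WBP11, a splicing factor (-1.05), and NCAPD2, a condensin subunit (-1.01). TULP3, a ciliary trafficking adaptor (-1.23), ATF7IP, a partner of the histone methyltransferase SETDB1 (-0.94), PPFIBP1, a liprin (-1.04), and ERGIC2, a protein of the early secretory pathway (-0.43), were also called lower. RPL13AP20, a ribosomal protein pseudogene, measured 12.59, 13.14 and 12.96 in shDAXX, against 13.79, 13.72 and 13.27 in shControl (-0.70), and was not called, except without shControl replicate 3 (-0.86), with dim genes left out and with trend and robust moderation (-0.70 in both). Its sequence resembles copies elsewhere, so its signal cannot be assigned to this locus with certainty.

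Members were also grouped into functional lists. Over all 22465 genes the median log2 fold change was 0.01, with 5.60% called lower. Of the 309 members 38.5% were called lower, and of the 188 above the table's median signal 62.8%. The lists differed in signal, with a median of 10.84 for RNA processing and translation and 4.78 for bitter taste receptors. Differences between lists were not tested. In glycolysis and glucose use, 7 of 8 measured members were called lower and the list median was -0.44. SLC2A3 and its near copy SLC2A14, which share sequence and may share probe signal, were lower by 1.66 and 0.96 on the log2 scale. LDHB, a lactate dehydrogenase subunit, was lower by 0.81, TIGAR, a fructose bisphosphatase, by 0.50, TPI1, triosephosphate isomerase, by 0.37, and ENO2, an enolase, by 0.29. GAPDH measured 16.73, 16.87 and 16.81 in shDAXX, against 17.12, 17.06 and 17.13 in shControl, a log2 fold change of -0.30 that became -0.09 and lost its call under quantile normalization, and that lost its call whichever array was left out. GYS2, the glycogen synthase of liver, had a signal of 4.30 and differed by 0.04.

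Of the 13 members listed under RNA processing and translation, 11 were called lower, with a median of -0.93. Beside DDX47, STRAP and WBP11 they included MRPS35, a mitochondrial ribosomal protein (-1.16), INTS13, an Integrator subunit (-1.07), CAPRIN2, an RNA-binding protein (-0.99), NOP2, a ribosomal RNA methyltransferase (-0.52), and EMG1, another such enzyme (-0.35). FGFR1OP2 (-0.93) and BICD1, a dynein adaptor (-0.49), were on the list without being RNA-processing genes. MRPL51, a mitochondrial ribosomal protein, had no overlap between groups but was not called (-0.39). The list headed mitochondrial genes overlapped this one, and 7 of its 10 members were called lower, with a median of -0.64. PHB2, a prohibitin, was lower by 0.61 and ETFRF1, a regulator of the electron-transferring flavoprotein, by 0.92. The list also held the cytosolic BCAT1 and MGST1 (-0.91), which is not confined to mitochondria. FAR2 and TSPAN11 were on it without being mitochondrial genes, so its count and median do not describe mitochondrial genes alone.

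In the chromatin and transcription list, 16 of 20 members were called lower, with a median of -0.70. The 16 also held the ciliary trafficking adaptor TULP3, the prohibitin PHB2, COPS7A and MLF2. The count and median therefore do not describe chromatin and transcription genes alone. PHC1, a Polycomb protein, measured 8.40, 8.35 and 8.25 in shDAXX, against 9.72, 9.83 and 9.71 in shControl, a log2 fold change of -1.42 with no overlap. SOX5, a developmental transcription factor, was lower by 1.26, MED21, a Mediator subunit, by 1.13, TEAD4, a transcription factor of the Hippo pathway, by 0.88, and CREBL2, a bZIP protein, by 0.81. ETV6, an ETS-family repressor, was lower by 0.55 and ZNF384, a zinc finger protein, by 0.52. CHD4, the ATPase of the NuRD complex, measured 12.36, 12.30 and 12.29 in shDAXX, against 12.54, 12.58 and 12.63 in shControl, and its fall of 0.27 was the smallest of the 16. The other 4 were NANOG, a pluripotency factor, PRMT8, GDF3, a secreted ligand, and ETFBKMT, at -0.04, 0.03, -0.28 and -0.10, with NANOG, PRMT8 and GDF3 at signals below the table's median.

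Of 18 members under RAS, kinase and phosphatase signalling, 12 were called lower, with a median of -0.83. The 12 included CAPRIN2, which was also counted in the RNA processing and translation list. Beside ARHGDIB and RASSF8, EPS8, an adaptor that links receptor kinases to actin, was lower by 1.24, PLEKHA5, a pleckstrin-homology protein, by 1.22, ITPR2, an inositol trisphosphate receptor, by 1.17, and STK38L, an NDR kinase, by 1.15. WNK1, a kinase of ion balance, was lower by 0.87, ERC1, a scaffold protein, by 0.78, PDE3A, a cyclic nucleotide phosphodiesterase, by 0.76, and DUSP16, a phosphatase of MAP kinases, by 0.64. PTPN6 and FGD4 had signals above 5 and differed by -0.07 and -0.09. RERG, PTPRO, PIK3C2G and GUCY2C had signals at or below 5 and differed by 0.26, -0.01, 0.03 and 0.08.

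Of 12 members under cell cycle, DNA repair and helicases, 8 were called lower, with a median of -0.52. The 8 included DDX47 and NOP2, which were also counted in the RNA processing and translation list. CCND2, a D-type cyclin, measured 8.69, 8.75 and 8.69 in shDAXX, against 9.68, 9.78 and 9.79 in shControl, a log2 fold change of -1.04. CDKN1B, the inhibitor p27 of cyclin-dependent kinases, measured 8.42, 8.62 and 8.70 in shDAXX, against 9.14, 9.38 and 9.13 in shControl, a log2 fold change of -0.64. A cyclin and an inhibitor of cyclin-dependent kinases were thus both lower, with no overlap between groups in either. RECQL, a RecQ helicase, was lower by 0.84, CDCA3, a mitotic regulator, by 0.54, DDX11, a helicase of sister chromatid cohesion, by 0.53, and RAD52, a recombination protein, by 0.38. PARP11 and FBXL14 differed by -0.36 and -0.48 and were not called, and ING4, a reader of histone methylation, differed by 0.08.

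In the list of membrane traffic, glycosylation and ubiquitin genes, 9 of 19 were called lower, with a median of -0.48. CCDC91, a Golgi trafficking protein (-0.91), USP5, a deubiquitinase (-0.76), IPO8, an importin (-0.68), GOLT1B, a Golgi protein (-0.65), and GABARAPL1, an autophagy protein (-0.62), were among them, as were RIMKLB (-0.71) and DERA (-0.71), which are metabolic enzymes. Of 14 members listed under secreted ligands, matrix and receptors, 6 were called lower, with a median of -0.28. Over the 9 of them above the table's median signal, the median was -0.73. Beside EMP1 and MANSC1 those called lower were LRP6, a Wnt co-receptor (-0.91), CD9, a tetraspanin (-0.46), CMAS and CRACR2A. CMAS, which activates sialic acid (-1.02), and CRACR2A, a regulator of calcium entry (-0.73), were on the list without being such genes. WNT5B differed by -0.27 with no overlap between groups but was not called, and FGF6, FGF23 and MGP differed by 0.02, 0.05 and -0.01 at signals near 5 or below.

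**Figure D4:**
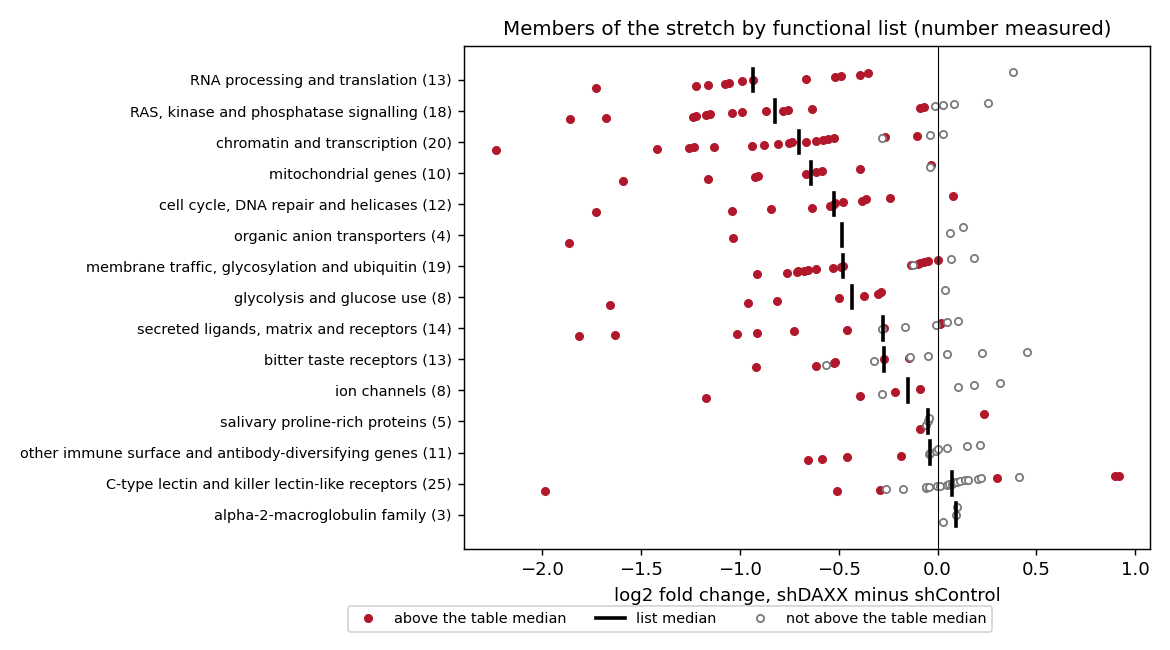
Log2 fold change of the members in each functional list, with filled red circles for members above the table's median signal, open circles for the others and a black bar at the list median. The list medians run from -0.93 for RNA processing and translation to 0.09 for the alpha-2-macroglobulin family, whose 3 members were all dim.

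Most members of gene clusters best known from other tissues had signals not above the table's median. Over all genes, 5.60% were called lower and 4.30% higher. Of 25 C-type lectin and killer lectin-like receptor genes, 6 had a signal above the table's median. Of the 25, 2 (8%) were called lower and 2 (8%) higher, and the median was 0.07. OLR1 and CLEC2D, a ligand of a natural killer receptor (-0.51), were the 2 lower ones. CLEC2B differed by -0.29 with no overlap and was not called. Of 13 bitter taste receptor genes, 6 had a signal above the table's median and TAS2R14 alone was called lower (-0.61). Their median was -0.27, and -0.52 over those 6, 10 of the 13 were below 0, and the groups stood apart in 4, with values from -0.92 in TAS2R30 to 0.45 in TAS2R13. Of 5 salivary proline-rich protein genes, none was called, with values from -0.09 to 0.23. The 3 alpha-2-macroglobulin family members A2M, A2ML1 and PZP differed by 0.03 to 0.10 at signals of 4.29 to 4.73. A list of 11 members was headed other immune surface and antibody-diversifying genes, though it also held genes outside that name, such as VWF and GNB3. On it, CD163L1, LTBR, a receptor of the tumour necrosis factor family, and CD9 were called lower, by 0.65, 0.58 and 0.46. The T-cell genes CD4, LAG3 and CD27 differed by at most 0.04 in size at signals below 5.

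Smaller families held members called lower. Among 4 organic anion transporter genes, SLCO1B1, a near relative of SLCO1B3, measured 4.94, 4.86 and 5.00 in shDAXX, against 6.27, 5.92 and 5.71 in shControl, a log2 fold change of -1.03. As near relatives, SLCO1B1 and SLCO1B3 may share probe signal, which was not tested. SLCO1A2 and SLCO1C1, dim in all arrays, differed by 0.13 and 0.06. Of 8 ion channel genes, ITPR2 and ANO2, a calcium-activated chloride channel (-0.39), were called lower and KCNA1, a voltage-gated potassium channel, higher. CACNA2D4, a calcium channel subunit, and SCNN1A, a sodium channel subunit, both above the table's median, differed by -0.22 and -0.09 without being called.

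The 4 members called higher were KLRC2, KLRC3, AK4P3 and KCNA1. KLRC2, an activating receptor of natural killer cells, measured 7.34, 7.52 and 7.29 in shDAXX, against 6.37, 6.46 and 6.56 in shControl, a log2 fold change of 0.92 (SE 0.087). KLRC3, its neighbour, measured 7.01, 7.27 and 7.08 in shDAXX, against 6.07, 6.27 and 6.33 in shControl, a log2 fold change of 0.90 (SE 0.10). KLRC1, the inhibitory receptor beside them, measured 5.31, 5.36 and 5.12 in shDAXX, against 4.89, 4.97 and 5.03 in shControl, and was not called (0.30). The 3 genes are close copies of one another, so their probes may share signal. Other receptors of natural killer cells in the cluster, KLRD1, KLRF1, KLRB1 and KLRG1, had signals below the table's median and differed by -0.06, 0.05, -0.18 and -0.26.

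AK4P3, a pseudogene of the adenylate kinase gene AK4, measured 10.77, 11.03 and 10.72 in shDAXX, against 10.01, 10.09 and 9.79 in shControl, a log2 fold change of 0.88. AK4 itself, on another chromosome, measured 10.71, 10.93 and 10.80 in shDAXX, against 10.20, 10.18 and 10.22 in shControl, and rose by 0.61 (SE 0.074, limma adjusted p = 0.0035). The pseudogene and its parent were both higher, and which locus gave the AK4P3 signal was not tested. KCNA1 measured 5.05, 5.04 and 4.99 in shDAXX, against 4.73, 4.73 and 4.67 in shControl, a log2 fold change of 0.32 that lost its call whichever array was left out. Of the 5 largest positive values, MIR3974 (0.51) and CLECL1 (0.41) were not called, and both had mean signals below the table's median. CLECL1 differed by 0.235 without shDAXX replicate 1, and MIR3974 differed by 0.75 and was called higher without shControl replicate 1.

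**Figure D5:**
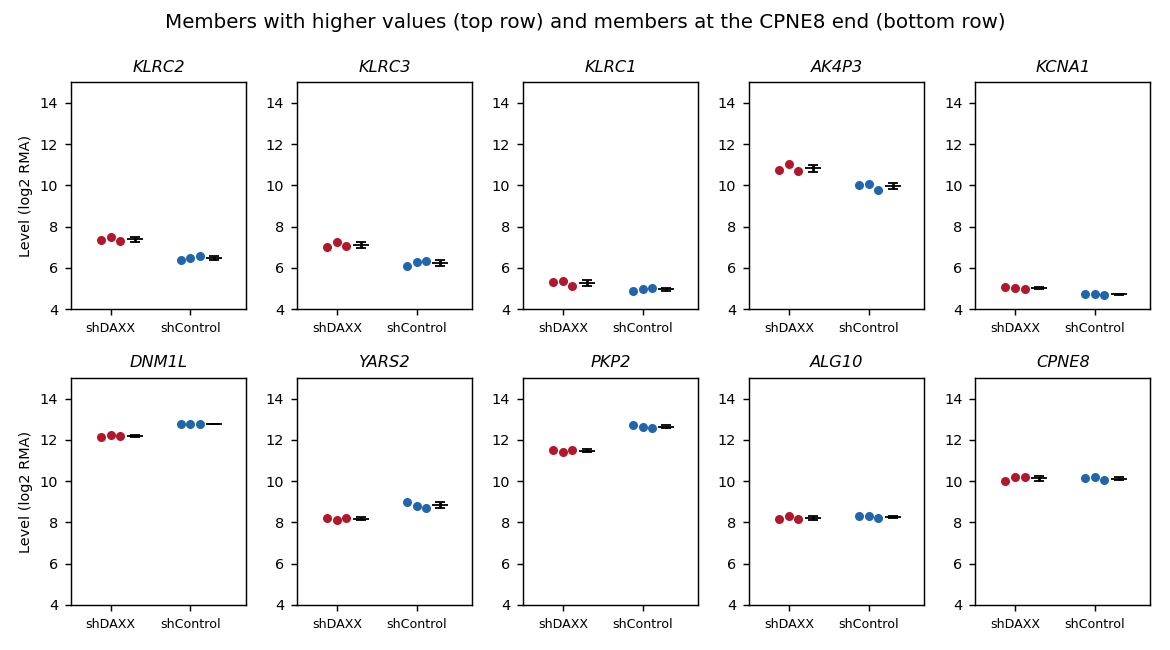
Log2 RMA level in each array for members with higher values in shDAXX (top row) and for members at the CPNE8 end (bottom row, in gene order), with shDAXX in red on the left, shControl in blue on the right and the mean with SD (n = 3) as a black mark. In the bottom row the groups stand apart up to PKP2 and overlap in ALG10 and CPNE8.

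Of the 79 members with a signal over 9, 8 were not called lower. Beside AK4P3, RPL13AP20 and CPNE8 these included FERRY3, an early-endosome protein that binds mRNA (-0.18), CLEC2B (-0.29), SINHCAF, a subunit of a SIN3 histone deacetylase complex (-0.32), and MRPL51 (-0.39). FERRY3 measured 10.58, 10.67 and 10.82 in shDAXX, against 10.87, 10.97 and 10.77 in shControl, and its groups overlapped. In CLEC2B, SINHCAF, MRPL51 and RPL13AP20 every shDAXX array was below every shControl array.

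Some noncoding members could be set beside their host genes. SCARNA10, a small Cajal-body RNA in an intron of NCAPD2, measured 6.96, 6.42 and 6.36 in shDAXX, against 7.30, 7.66 and 7.25 in shControl (-0.82), beside -1.01 in its host. SCARNA12, in an intron of PHB2, measured 9.94, 9.68 and 9.61 in shDAXX, against 10.64, 11.04 and 10.99 in shControl (-1.15), beside -0.61 in its host. SCARNA11, in an intron of CHD4, measured 5.31, 5.30 and 5.02 in shDAXX, against 5.19, 5.27 and 4.86 in shControl (0.10, not called), beside -0.27 in its host. Thus the host and the small RNA were both called lower in the NCAPD2 and PHB2 pairs, by different amounts, and the size difference was not tested. Of 26 long noncoding RNAs, 3 were called lower, namely GPRC5D-AS1 (-0.71), LOC642846 (-0.60) and NINJ2-AS1 (-0.29). Of the 26, 8 had a signal above the table's median, and 2 of these 8 were called lower. NINJ2-AS1 was below that median. None of the 7 microRNA genes was called, and MIR200C and MIR141, precursors of an epithelial microRNA family, had signals of 4.39 and 3.89 and differed by -0.03 and -0.24.

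Clusters within the stretch that the selection did not use gave further values from the same arrays. The cluster annotated to both MIR614 and GPRC5A, a retinoic acid-induced receptor gene, measured 13.72, 13.79 and 13.49 in shDAXX, against 15.57, 15.75 and 15.53 in shControl, a log2 fold change of -1.95 with no overlap. In a fit of all 67528 clusters, where 1.34% were called lower and 0.795% higher, it was among 3 of 12 clusters with several symbols that were called lower, the others being those of PRR4 with PRH1-PRR4 (-1.11) and DDX12P with DDX11 (-0.51). The 12 had a median of -0.17. Of 10 further clusters of members that had more than 1 cluster, none was called in that fit, and their median was -0.15. The weaker WNK1 cluster was the most variable of these, at 7.09, 5.74 and 5.61 in shDAXX, against 6.96, 7.48 and 7.65 in shControl.

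Clusters with no symbol were placed by the number in their identifier. In the named genes these numbers followed gene order in 511 of 515 and 557 of 559 steps within each of 2 separate runs of 516 and 560 genes, and clusters numbered outside those runs were not placed. Of 277 such clusters within the stretch, 5 were called lower, 0 were called higher and the median was -0.03, and of 703 outside it, 3 were called lower, 3 were called higher and the median was 0.00. With a signal above the table's median, the median was -0.14 in 107 clusters inside and -0.08 in 301 outside. With a signal over 7, it was -0.17 in 26 clusters inside, of which 3 were called lower and 0 higher. In 74 such clusters outside it was -0.11, with 1 called lower and 1 higher. Of the 5 called lower inside, the one with the largest fall measured 6.74, 7.16 and 6.27 in shDAXX, against 8.41, 8.51 and 8.44 in shControl, a log2 fold change of -1.73. Another measured 10.51, 10.48 and 10.50 in shDAXX, against 11.83, 12.02 and 11.48 in shControl, a log2 fold change of -1.28, and it was also called lower. These medians inside and outside the stretch lay closer together than those of the named genes, which were -0.55 and 0.01 above the table's median signal, and that contrast was not tested.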

How the data were processed

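RNA of 3 shDAXX and 3 shControl cultures was hybridized to Affymetrix human transcriptome arrays, 1 per culture. The deposited values are log2 RMA signals, which the authors made by background correction, normalization between arrays and summary of probes, with Affymetrix Expression Console named in the submitters' processing notes. The study's methods describe a batch correction, and no source used here says whether these arrays received it. RMA compresses differences near background.

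The table held 70523 rows, of which 67528 were transcript clusters. Clusters with 1 symbol gave 22465 genes (the cluster with the highest mean per gene), ordered by the RefSeq gene table of GRCh38.p14, where 287 of the 309 members matched by gene ID and the others by symbol. No source used here names the array's build, so positions on the array are given as gene order only. A linear model without covariates (limma 3.58.1 in R 4.3.3, lmFit then eBayes, two-sided) was fitted across all 22465 genes with Benjamini-Hochberg adjustment and a threshold of 0.05. Fold changes are shDAXX minus shControl, with moderated SE.

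The members, lists and rules were chosen with earlier results of these data known. Genes named are DAXX, list members, the 10 largest falls and 5 largest rises among members whose higher group mean exceeded 4.99 (the table's median row mean), the 15 strongest shControl signals, the genes at both ends and every member called higher. Host genes of small RNAs, AK4, members over a signal of 9 not called lower, called noncoding members and clusters outside the selection were added after their values were seen. The values of 1 member over a signal of 9 are not reported here. Alternatives were a filter on dim genes, averaging over the clusters of a gene, 2 other scalings (quantile normalization, equal array medians), the replicate block, moderation with trend, array weights, the methods' t-test, a 1.3-fold minimum and leaving out each array.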

Additional observations from a re-analysis of the deposited data

How the results depend on the processing

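The number of members called lower was 119 and ran from 97 under the methods' t-test to 126 with dim genes left out of the fit. It was 103 to 109 when 1 array was left out, and 102 of the 119 were called in all 6 of those fits. Members called higher numbered 3 to 6. The median over the members, -0.20, was -0.55 with dim genes left out and the same over members above the table's median alone, -0.22 with equal array medians and -0.22 to -0.18 when 1 array was left out. In the 121 members not above the table's median, the sign turned to 0.02, with 1 member called lower and 1 higher, and the cause was not tested. The median over the rest of chromosome 12, 0.027, was 0.013 with dim genes left out, 0.036 with quantile normalization, 0.00 with equal array medians and 0.018 to 0.035 when 1 array was left out, and the cause was not tested.

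Same-numbered arrays deviated together with correlations of -0.09, 0.22 and 0.08, against -0.22 to 0.13 in arrays of different numbers. With 3 arrays per group, these values cannot settle whether replicate numbers pair the arrays. With the replicate number as a block, 108 members were called lower and 3 higher. Of 417 values of 30 named genes under the alternatives, 396 kept their direction and their side of the threshold, 17 lost a call, in GAPDH and KCNA1, 4 gained one, in RPL13AP20 and MIR3974, and 0 reversed.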
